A study of Mus musculus with 24 samples.

Results

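The comparison described here sets pancreatic islets of BLKS mice against islets of BL6 mice, both fed chow. Its members are the 4 arrays titled as chow BLKS (group 4) and the 4 arrays titled as chow BL/6 (group 1), 8 of the 24 arrays of the series, and they were chosen by title alone. BL6 and BLKS are the inbred strains C57BL6/J and C57BLKs/J of the series title. All mice were male and 8 weeks old when feeding began, and chow supplied 18% of its energy as fat. The sample labels give 12 weeks of feeding and the design text of the series gives 16 weeks. The other 16 arrays hold 4 mice of each strain on a high-fat diet (42% of energy as fat) and 4 of each strain on the same diet with 140 mg of the PPAR-gamma agonist pioglitazone per kg, and they enter here only where named. Islets were released by perfusing each pancreas with collagenase and neutral protease, and total RNA was amplified, labelled with Cy3 and hybridised to single-colour Agilent arrays of 62976 spots, 1 mouse per array. The labels do not give the day or hour at which islets were isolated. The strains differ at many places in the genome, so the comparison isolates no single allele.

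An islet is a cluster of endocrine cells: beta cells secrete insulin, alpha cells glucagon, delta cells somatostatin and PP cells pancreatic polypeptide, and blood vessels, nerve sheath cells and macrophages run among them. BLKS descends mainly from C57BL/6 with an admixture of other strains, chiefly DBA/2, and is known for the severe beta-cell failure that follows when it carries the diabetes mutation of the leptin receptor. C57BL/6J is known for a deletion within Nnt, which encodes the mitochondrial enzyme that makes NADPH from NADH. Islet isolation is itself a stimulus for islet cells, and genes of the immediate early class respond to stimuli of many kinds within minutes, without new protein being made first.

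Each value below is a log2 level: the log2 of the background-subtracted spot intensity minus the log2 of that array's 75th percentile, so that 0 is the 75th percentile of the array and a difference of 1 is a 2-fold difference. A difference is BLKS minus BL6, its error (SE) and adjusted p come from limma fitted on all 24 arrays with Benjamini-Hochberg adjustment over 22968 genes, and a gene is said to have risen or fallen where its adjusted p is under 0.05. Levels of different genes rest on different probes and are not compared with each other. In bulk islets, fewer cells of a type and less RNA per cell cannot be told apart.

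The arrays carried the RNA of islets in both strains. Of 8 hormone genes measured, 0 passed the test in limma, and no spot on any array was marked as saturated. Ins1 stood at 10.05, 10.01, 10.10 and 9.92 in the 4 BL6 mice and at 10.28, 9.86, 9.74 and 9.73 in the 4 BLKS mice. The groups overlapped, with BLKS mouse 1 above and the other 3 BLKS mice below all BL6 mice (difference -0.12, SE 0.16, adjusted p = 0.592). Ins2 differed by -0.05 (SE 0.15, adjusted p = 0.803), Gcg, which encodes glucagon, by -0.10 (SE 0.14, adjusted p = 0.6), and Sst, which encodes somatostatin, by 0.10 (SE 0.14, adjusted p = 0.597). Iapp, the amyloid peptide released with insulin, differed by -0.09 (SE 0.14, adjusted p = 0.644). Ppy, the pancreatic polypeptide gene, was the most variable of these, at 9.06 to 9.63 in BL6 and 8.88 to 9.96 in BLKS (difference -0.07, SE 0.46, adjusted p = 0.925). Pyy, a peptide of the same family, differed by -0.42 (SE 0.29, adjusted p = 0.256). Ghrl, the ghrelin gene, had the widest difference of the 8 without a call: it read -0.80, 1.88, 1.97 and 2.72 in BL6 and -0.71, 2.01, -1.38 and -0.81 in BLKS (difference -1.67, SE 0.79, adjusted p = 0.0993). Both strains held low and high mice for Ghrl, and the groups overlapped. How far the brightest of these spots still respond to RNA level was not tested.

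The strain difference was broad. Of 22968 genes tested, 9544 (41.6%) passed the threshold, 4739 higher in BLKS (20.6%) and 4805 lower (20.9%). Most of these differences were small: the median size among called genes was 0.69 on the log2 scale, and 3012 genes (13.1%) were both called and at least 2-fold apart. At the far end the counts became uneven, with 583 genes at least 4-fold higher and 278 lower, 202 and 49 at 8-fold, and 73 and 16 at 16-fold. Without regard to the test, the 4 arrays of one strain all lay beyond the 4 of the other for 10747 genes (46.8%). The median difference over all genes was -0.03, and the first principal component of the 24 arrays (45.6% of variance) put all BL6 arrays at or below -55.4 and all BLKS arrays at or above 52.7.

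On chow, strain and slide cannot be told apart. All 4 BL6 chow arrays lay on slide 1, BLKS mice 1, 2 and 4 on slide 2 and BLKS mouse 3 on slide 3. Slide 3 also held BL6 mouse 4 on high-fat diet with pioglitazone, and slide 2 the other 3 BL6 mice of that group. For the strain difference on chow, setting the 3 BLKS chow mice of slide 2, which are shared with the main comparison, against those 3 gave 5213 calls (3034 higher, 2179 lower), with diet now differing too. A fit with slide as an added term, and with strain and diet additive, gave 4313 calls (2356 higher, 1957 lower). Its strain effect is shared by the 3 diets, so it is not the strain difference on chow alone. The lower count can reflect that change as well as the slide term. The 8 chow arrays had 75th percentiles of 268.6 to 345.4 intensity units and 52.3% to 58.3% of probes well above background. A probe near the 5′ end of a transcript read relatively brighter in BLKS: over 1855 transcripts with probes at least 500 bases apart, the median 5′ minus 3′ log2 difference was -1.40 to -1.33 in BL6 and -1.20 to -1.08 in BLKS, a measure chosen after the data were seen. These ranges did not overlap on any of the 3 diets, and the part of this measure in the results below was not tested.

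**Figure D1:**
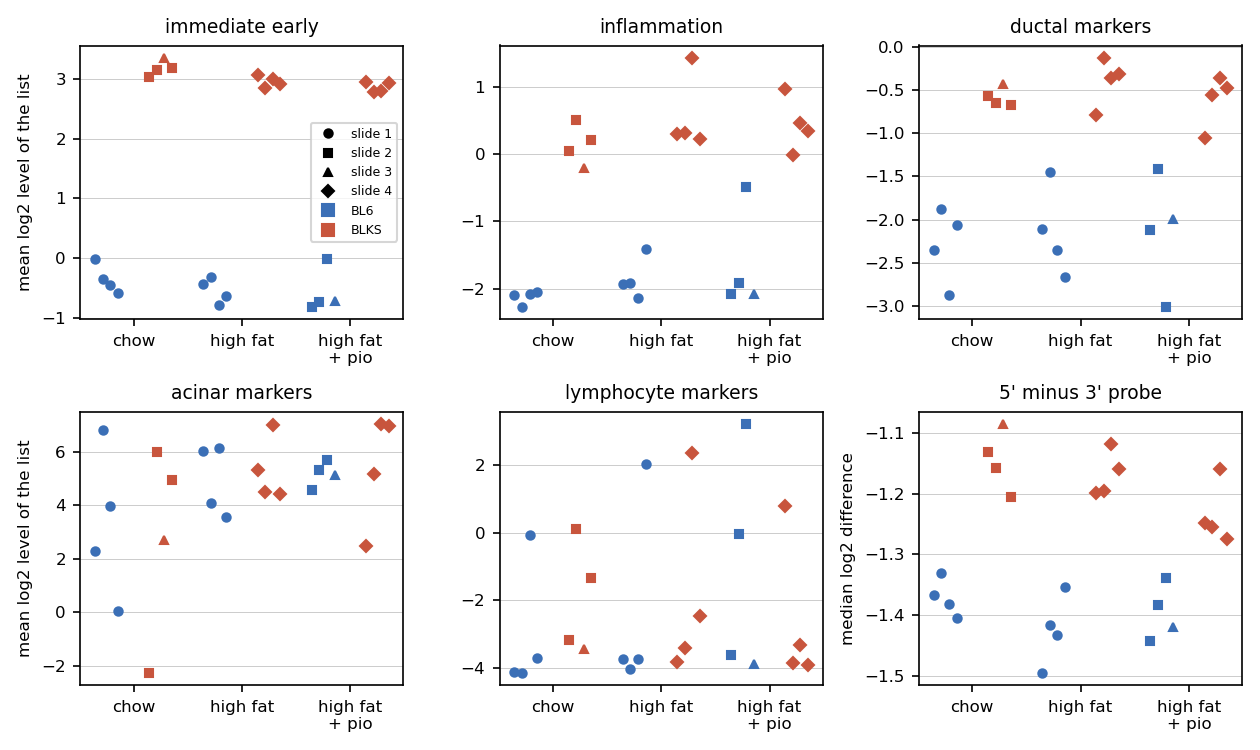
Mean log2 level of the members of 5 gene lists, and the median log2 difference between 5′ and 3′ probes of the same transcript, on each of the 24 arrays; a point is 1 mouse, colour is strain and shape is slide. On chow the immediate early mean was -0.58 to -0.01 in BL6 and 3.03 to 3.35 in BLKS, whereas the acinar and lymphocyte means of the strains overlapped.

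Immediate early genes made the clearest group. Of 28 measured, 27 rose in BLKS and none fell, against 20.6% of all genes called higher, and the median difference was 3.40 against -0.03 over all genes. The list holds transcription factors of the AP-1, EGR and NR4A families, phosphatases that switch off MAP kinases (Dusp1, Dusp4, Dusp5, Dusp6) and RNA or growth regulators such as Zfp36, Ier2 and Ier3. It had been assembled with earlier results of these arrays known, so its direction is a description.

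Atf3, a stress-induced repressor of the ATF/CREB family (probe at mm9 chr1:192994547-192994606, minus strand), had the largest rise of the genes named here. Its log2 level was -3.22, -3.41, -3.16 and -2.70 in the BL6 mice and 4.61, 4.76, 5.58 and 4.67 in the BLKS mice. No BLKS mouse came near the BL6 range, and the difference of 8.02 (SE 0.52, adjusted p = 1.55e-10) is a 260.4-fold difference. Fosb, an AP-1 subunit (chr7:19888168-19888227, minus strand), read -0.04, -0.70, -0.82 and -0.81 in BL6 and 5.80, 5.75, 6.33 and 5.71 in BLKS. BLKS mouse 3 was again the highest, and the groups lay 6.49 apart (SE 0.23, 89.7-fold, adjusted p = 1.83e-14). Egr4, a zinc finger factor of the EGR family, was not well above background on any BL6 chow array (-6.30, -5.09, -6.50 and -6.33) and was so on all 4 BLKS arrays (-1.19, -0.57, -0.07 and 0.09). That makes it at least 16.7-fold higher (adjusted p = 1.44e-11); here and below, an "at least" fold sets the bright strain's mean against the higher of the dim spot and the dimmest signal well above background on each array of the dim strain.

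Members well above background in both strains rose as well. Jund, an AP-1 subunit present in resting cells, stood at 4.74, 4.67, 4.60 and 4.47 in BL6 and 8.23, 7.84, 8.16 and 7.74 in BLKS. The spread within each strain was small beside the gap of 3.37 (SE 0.10, 10.4-fold, adjusted p = 9.69e-16). Ier3, an early gene tied to cell survival, rose by 3.68 (SE 0.15, adjusted p = 2.07e-13), and Klf4, a zinc finger factor of growth arrest, by 2.97 (SE 0.15, adjusted p = 5.74e-12). Npas4, a factor induced by depolarisation in neurons and beta cells, rose by 4.55 (SE 0.29, adjusted p = 1.26e-10). Klf2, the flow-responsive factor of endothelial cells, was the member that did not pass (0.38, SE 0.39, adjusted p = 0.473).

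The classical members varied more among BL6 mice. Fos read 3.101, 1.79, 1.69 and 1.11 in BL6 and 5.01, 5.04, 5.55 and 5.10 in BLKS, a difference of 3.26 (SE 0.52, adjusted p = 3.8e-05). Egr1 read 3.44, 2.55, 2.16 and 1.93 in BL6 and 6.08, 6.07, 6.19 and 6.29 in BLKS, a difference of 3.64 (SE 0.30, adjusted p = 5.76e-09). In both genes BL6 mouse 1 was the highest of its strain and still below every BLKS mouse. That mouse held the highest BL6 value for 20 of the 28 members, whereas the highest BLKS value was in mouse 3 for 14 members.

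The first 250 bases before the start of 22 of the 28 members were found in RefSeq (GRCm38.p6). They were searched on both strands for the cyclic AMP response element TGACGTCA, for its core TGACG (contained in the full element, and added after the data were seen), for the AP-1 site TGANTCA and for the CArG box of serum response factor. The full element was in 13.6% of them, against 2.88% of the 12517 tested genes with a promoter in the table, the core in 68.2% against 27.8%, the CArG box in 13.6% against 1.61%, and AP-1 in 0 against 5.94%. The core was not particular to immediate early genes: 44.1% of unfolded protein response and 41.2% of cholesterol synthesis promoters held it. Cytosolic heat shock promoters also held it more often than tested genes. The immediate early promoters had a higher median GC content than the 58.8% of tested genes. The part of GC content in these shares was not tested. A match is a description of letters in this window, and its absence says nothing of the factor. The promoters of the 3 members with the largest differences are shown, 5′ to 3′ on the strand of the gene, with the core in capitals; CGTCA is the core read on the other strand.

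Atf3 promoter (GRCm38.p6 chr1:191183334-191183583, minus strand): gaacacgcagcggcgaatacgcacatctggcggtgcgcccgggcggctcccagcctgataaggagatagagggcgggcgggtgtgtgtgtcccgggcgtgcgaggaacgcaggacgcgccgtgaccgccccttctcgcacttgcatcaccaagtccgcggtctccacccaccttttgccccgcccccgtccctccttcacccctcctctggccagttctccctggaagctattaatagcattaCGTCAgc
Fosb promoter (GRCm38.p6 chr7:19310046-19310295, minus strand): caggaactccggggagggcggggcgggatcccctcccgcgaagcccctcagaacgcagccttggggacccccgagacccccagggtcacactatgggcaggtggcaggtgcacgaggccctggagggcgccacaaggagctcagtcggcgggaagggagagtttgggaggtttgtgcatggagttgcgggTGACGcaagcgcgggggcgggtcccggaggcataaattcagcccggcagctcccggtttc
Egr4 promoter (GRCm38.p6 chr6:85513590-85513839, minus strand): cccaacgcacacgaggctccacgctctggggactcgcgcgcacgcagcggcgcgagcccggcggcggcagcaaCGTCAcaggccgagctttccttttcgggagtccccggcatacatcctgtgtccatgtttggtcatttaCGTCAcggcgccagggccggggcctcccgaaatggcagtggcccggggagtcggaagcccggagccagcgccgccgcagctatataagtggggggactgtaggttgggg

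In Atf3 the core lay 7 to 3 bases before the start, in Fosb 60 to 56 bases before it, and Egr4 held it at 177 to 173 and again at 109 to 105.

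Genes of inflammation were the next group. Of 33 cytokines, chemokines, adhesion molecules and NF-kappaB regulators measured, 24 rose (72.7% against 20.6% of all genes) and none fell. Their median difference was 2.05. For 10 of them the chow arrays of 1 strain were never well above background, and with these set to their bounds the median was 1.56. Il6, the acute-phase cytokine (chr5:30346367-30346426, plus strand), read -6.47, -6.79, -6.69 and -6.53 in BL6 and 0.04, 0.48, -0.28 and 0.49 in BLKS. It was above background on 0 of 4 BL6 and 4 of 4 BLKS arrays, and so at least 25.7-fold higher (adjusted p = 1.23e-11). Cxcl2, a neutrophil-attracting chemokine, read -5.19, -6.28, -5.70 and -5.66 against -0.35, -0.69, -0.65 and -0.24. Again only BLKS arrays passed background (at least 16.2-fold, adjusted p = 5.94e-11). Its neighbour Cxcl1 (chr5:91321845-91321904, plus strand) was more uneven in BLKS, at -1.33, 1.03, -2.13 and -0.54 (at least 13.5-fold, adjusted p = 3.79e-05). Ccl2, which attracts monocytes, read -4.50, -4.75, -4.14 and -3.49 in BL6 and 1.07, 1.33, -0.14 and 1.81 in BLKS. Its groups stood 5.23 apart (SE 0.75, adjusted p = 9.37e-06; 2 of 4 BL6 arrays above background), with BLKS mouse 3 the lowest of its strain, as it was for Cxcl1.

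Members that rose included inhibitors of these signals. Socs3, the feedback inhibitor of cytokine receptors, rose by 3.40 (SE 0.18, adjusted p = 1.06e-11). Nfkbia, the inhibitor that holds NF-kappaB in the cytosol, rose by 2.51 (SE 0.24, adjusted p = 5.62e-08), and Tnfaip3, the deubiquitinase A20, by 3.18 (SE 0.38, adjusted p = 1.09e-06). Among effectors, Tnf was at least 8.27-fold higher (adjusted p = 1.33e-05), Icam1, an adhesion molecule for leukocytes, at least 15.0-fold (adjusted p = 2.1e-05), and Ptgs2, the inducible prostaglandin synthase, at least 5.63-fold (adjusted p = 9.48e-07). Il1b rose by 1.76 (SE 0.27, adjusted p = 2.13e-05). Members without a call included Nos2, the inducible nitric oxide synthase (0.01, SE 0.11, adjusted p = 0.952), Relb (-0.28, SE 0.17, adjusted p = 0.202) and the lymphoid chemokine Cxcl13 (-0.04, SE 2.75, adjusted p = 0.993). Together the immediate early and inflammation lists supplied 29 of the 202 genes that were at least 8-fold higher in BLKS.

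A kappaB motif was found within 250 bases of the start in 36.4% of the 22 inflammation members with a promoter in the table, against 5.56% of tested genes, and the AP-1 site in 18.2% against 5.94%. The kappaB motif was also in 27.3% of the immediate early promoters. The promoters of Il6, Cxcl1 and Cxcl2 are given because their log2 differences were the largest among members with a promoter in the table. Members were ranked by difference and not by bound. Capitals mark the kappaB match nearest the start; in Cxcl1 and Cxcl2 the match reads on both strands, shifted by 1 base.

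Il6 promoter (GRCm38.p6 chr5:30012864-30013113, plus strand): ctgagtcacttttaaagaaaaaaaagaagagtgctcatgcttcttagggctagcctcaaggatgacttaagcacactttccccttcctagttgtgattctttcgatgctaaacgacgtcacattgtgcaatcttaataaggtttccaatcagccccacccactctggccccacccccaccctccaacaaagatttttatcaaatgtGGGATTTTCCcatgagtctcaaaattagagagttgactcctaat
Cxcl1 promoter (GRCm38.p6 chr5:90890995-90891244, plus strand): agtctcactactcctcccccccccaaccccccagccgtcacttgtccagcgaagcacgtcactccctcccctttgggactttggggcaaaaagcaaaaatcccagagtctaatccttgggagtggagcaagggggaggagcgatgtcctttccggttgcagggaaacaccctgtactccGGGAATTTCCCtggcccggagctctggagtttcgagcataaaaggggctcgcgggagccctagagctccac
Cxcl2 promoter (GRCm38.p6 chr5:90903649-90903898, plus strand): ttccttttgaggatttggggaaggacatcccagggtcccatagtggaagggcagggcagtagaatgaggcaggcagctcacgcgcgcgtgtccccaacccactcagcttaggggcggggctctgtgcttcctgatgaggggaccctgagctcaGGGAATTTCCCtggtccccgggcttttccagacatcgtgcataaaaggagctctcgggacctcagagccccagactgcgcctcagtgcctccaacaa

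The match ended 35 bases before the start in Il6, 62 and 61 in Cxcl1, and 88 and 87 in Cxcl2.

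**Figure D2:**
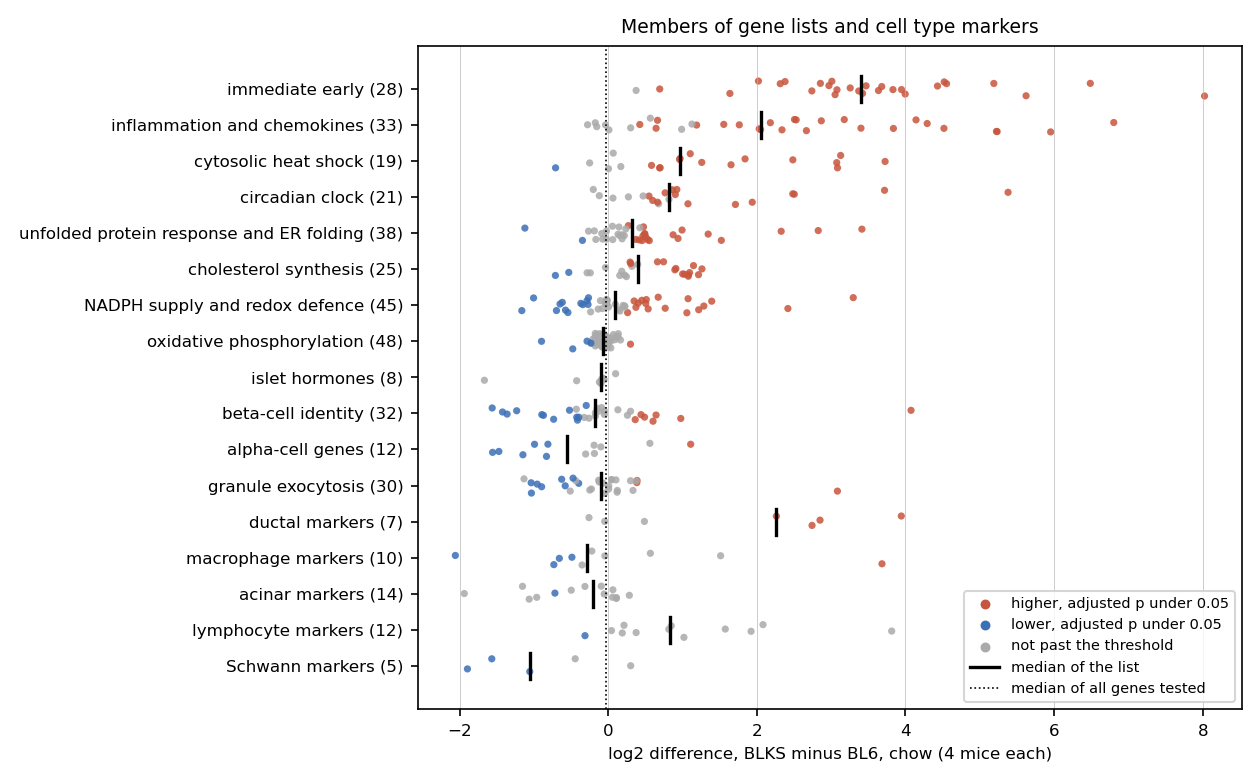
Log2 difference between BLKS and BL6 islets on chow for each measured member of 17 gene lists (number measured in brackets); a point is 1 gene, black bars are list medians and the dotted line is the median of all genes tested. The immediate early list lies almost wholly to the right (27 of 28 called higher), the hormone and oxidative phosphorylation medians were -0.09 and -0.07, and 6 of 12 alpha-cell genes were called lower.

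Cytosolic heat shock genes mostly rose in BLKS: 14 of 19 rose (73.7% against 20.6% of all genes) and 1 fell, with a median of 0.97. Hspa1a, the inducible HSP70 chaperone, stood at 2.74, 1.66, 0.83 and 0.29 in BL6 and at 5.24, 5.51, 5.28 and 4.41 in BLKS. BL6 mice were widely spread and still all lower (difference 3.73, SE 0.63, adjusted p = 6.63e-05). Bag3, its co-chaperone, was tighter, at 2.29, 1.76, 1.84 and 1.69 against 4.44, 4.58, 4.24 and 4.26 (difference 2.48, SE 0.13, adjusted p = 9.57e-12). The small heat shock proteins Hspb1 (3.13, SE 0.40, adjusted p = 2.05e-06) and Hspb8 (3.09, SE 0.23, adjusted p = 9.28e-10) also rose. So did Dnajb1, the HSP40 partner of Hspa1a (3.08, SE 0.32, adjusted p = 1.39e-07). Chordc1, an HSP90 co-chaperone, fell by 0.71 (SE 0.16, adjusted p = 0.00129), and Hspa8, the constitutive HSP70, had no call (0.17, SE 0.11, adjusted p = 0.246). BL6 mouse 1 held the highest BL6 value for 19 of the 19 members. The element GAANNTTC was in 35.7% of 14 promoters against 6.37% of tested genes, and the Hspa1a promoter carries it in capitals, 104 to 97 bases before the start.

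Hspa1a promoter (GRCm38.p6 chr17:34972157-34972406, minus strand): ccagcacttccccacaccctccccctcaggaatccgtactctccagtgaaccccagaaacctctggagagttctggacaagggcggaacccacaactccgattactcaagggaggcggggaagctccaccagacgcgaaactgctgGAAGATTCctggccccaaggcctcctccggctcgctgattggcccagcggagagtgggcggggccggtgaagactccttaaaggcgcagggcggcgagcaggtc

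The unfolded protein response, by which the endoplasmic reticulum answers misfolded protein, was called unevenly. Of 38 members 19 rose (50% against 20.6% of all genes) and 2 fell (5.26% against 20.9%), with a median of 0.32. Ppp1r15a (GADD34), which restores translation after eIF2alpha phosphorylation, read 3.58, 3.26, 3.28 and 3.28 in BL6 and 6.80, 6.70, 6.88 and 6.68 in BLKS. The mice of each strain lay within a narrow band, 3.41 apart (SE 0.11, adjusted p = 4.03e-15). Trib3 rose by 2.83 (SE 0.18, adjusted p = 1.43e-10) and Ddit3 (CHOP), the pro-apoptotic factor of the same arm, by 2.33 (SE 0.16, adjusted p = 5.2e-10). Atf4, its transcription factor, rose by 0.99 (SE 0.16, adjusted p = 3.44e-05). Among folding and disposal genes, the chaperone Hspa5 (BiP) rose by 0.94 (SE 0.13, adjusted p = 4.28e-06), Herpud1 by 1.52 (SE 0.11, adjusted p = 5.38e-10) and Xbp1 by 0.47 (SE 0.08, adjusted p = 8.3e-05). Dnajc3, an inhibitor of eIF2alpha kinases, went the other way, from 4.62, 4.35, 4.58 and 4.46 to 3.26, 3.50, 3.40 and 3.37. Its groups did not overlap (difference -1.12, SE 0.12, adjusted p = 2.02e-07). The protein disulfide isomerases Pdia4 (0.06, adjusted p = 0.797) and Pdia6 (-0.09, adjusted p = 0.668) had no call. Derl3, a gene of ER-associated degradation, rose by 1.35 (SE 0.30, adjusted p = 0.00108). Its promoter is shown for the ER stress element (ERSE), which 29.4% of 34 promoters of the list held against 0.16% of tested genes; it reads here on the other strand, 156 to 138 bases before the start.

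Derl3 promoter (GRCm38.p6 chr10:75893148-75893397, plus strand): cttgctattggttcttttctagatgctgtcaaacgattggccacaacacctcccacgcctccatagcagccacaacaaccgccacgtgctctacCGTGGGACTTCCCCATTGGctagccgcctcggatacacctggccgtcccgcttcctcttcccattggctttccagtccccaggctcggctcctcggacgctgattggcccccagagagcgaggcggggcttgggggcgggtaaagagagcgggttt

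Of 21 circadian clock genes 14 rose (66.7% against 20.6% of all genes) and none fell, with a median of 0.82. Nr1d1 (REV-ERBalpha), the repressor that closes the loop on Arntl, read -1.29, -0.69, -0.67 and -0.28 in BL6 and 4.82, 4.52, 4.77 and 4.48 in BLKS. Every BLKS mouse was at least 4 log2 units above every BL6 mouse, and the difference was 5.38 (SE 0.32, 41.7-fold, adjusted p = 3.33e-11). Dbp, an output factor under direct clock control, read 2.37, 2.77, 2.91 and 3.04 against 5.45, 4.92, 5.41 and 5.25 (difference 2.48, SE 0.30, adjusted p = 1.37e-06). Bhlhe40, a repressor that light and stress also induce, rose by 3.72 (SE 0.19, adjusted p = 5.18e-12), Nfil3 by 2.50 (SE 0.14, adjusted p = 1.09e-11) and Nr1d2 by 1.94 (SE 0.18, adjusted p = 2.2e-08). The period genes moved less, Per1 by 0.92 (SE 0.14, adjusted p = 2.22e-05) and Per2 by 1.07 (SE 0.18, adjusted p = 6.6e-05). The activators themselves had no call: Arntl (BMAL1) differed by 0.27 (SE 0.13, adjusted p = 0.0936) and Clock by -0.20 (SE 0.14, adjusted p = 0.286). The E-box CACGTG was in 23.5% of 17 promoters of the list against 9.14% of tested genes. It was not particular to clock genes: 23.5% of 17 cholesterol synthesis promoters and 22.7% of 22 immediate early promoters held it.

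Cholesterol synthesis genes were modestly higher in BLKS: 14 of 25 rose (56% against 20.6% of all genes) and 2 fell, with a median of 0.40. Fdft1, squalene synthase, read 2.29, 2.34, 2.13 and 2.43 in BL6 and 3.53, 3.46, 3.69 and 3.57 in BLKS. The groups were 1.26 apart without overlap (SE 0.12, adjusted p = 6.07e-08). Fdps rose by 1.22 (SE 0.16, adjusted p = 4.36e-06), Hmgcs1 by 1.10 (SE 0.15, adjusted p = 4.63e-06) and their activator Srebf2 by 1.08 (SE 0.22, adjusted p = 0.000417). Tm7sf2, a sterol reductase, fell by 0.71 (SE 0.13, adjusted p = 0.000125) and Acat2 by 0.53 (SE 0.10, adjusted p = 0.000133). The late enzyme Dhcr7 had no call (0.16, adjusted p = 0.324).

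Genes of NADPH supply and redox defence went both ways, 17 higher and 12 lower of 45, with a median of 0.10. These are 37.8% and 26.7%, against 20.6% and 20.9% of all genes. Hmox1, the inducible heme oxygenase, stood at -0.11, -0.17, 0.02 and -0.37 in BL6 and 3.31, 2.98, 3.23 and 3.04 in BLKS. It was the member with the widest gap (3.30, SE 0.22, 9.83-fold, adjusted p = 1.83e-10). The sulfiredoxin Srxn1 rose by 1.29 (SE 0.18, adjusted p = 9.83e-06) and the glutathione peroxidase Gpx1 by 1.06 (SE 0.10, adjusted p = 4.14e-08). Catalase (Cat) fell by 0.70 (SE 0.14, adjusted p = 0.000495), mitochondrial malic enzyme Me3 by 1.00 (SE 0.22, adjusted p = 0.00099) and Nfe2l2, the NRF2 factor that drives several genes of the list, by 0.57 (SE 0.10, adjusted p = 9.13e-05).

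Nnt is the gene by which C57BL/6J is often told from other strains, and its probes differed. The probe that stands for the gene (probe 1, mm9 chr13:120124335-120124394, minus strand) read 2.47, 2.37, 2.50 and 2.46 in BL6 and 3.71, 3.87, 3.98 and 3.83 in BLKS. The strains were 1.39 apart without overlap (SE 0.12, 2.63-fold, adjusted p = 6.41e-09). Probe 2 (chr13:120123318-120123377) was well above background on 0 of 12 BL6 and 12 of 12 BLKS arrays of the 3 diets, with chow means of -6.48 and -3.07. Probe 3 (chr13:120142585-120142644) did not separate the strains (0.05, SE 0.35, adjusted p = 0.933 over all probes kept). Where these probes lie relative to the deleted exons was not determined here, so they do not check the deletion. The first 30 of the 60 bases of each probe are printed as on the array, since the probes of 1 gene disagreed.

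Nnt probe 1: gtattaagtgcgcttgaatggaatgcaacc
Nnt probe 2: gagacatttttgggtttcagaactggcaga
Nnt probe 3: ggagggaccaacattgttctgatgtggagg

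**Figure D3:**
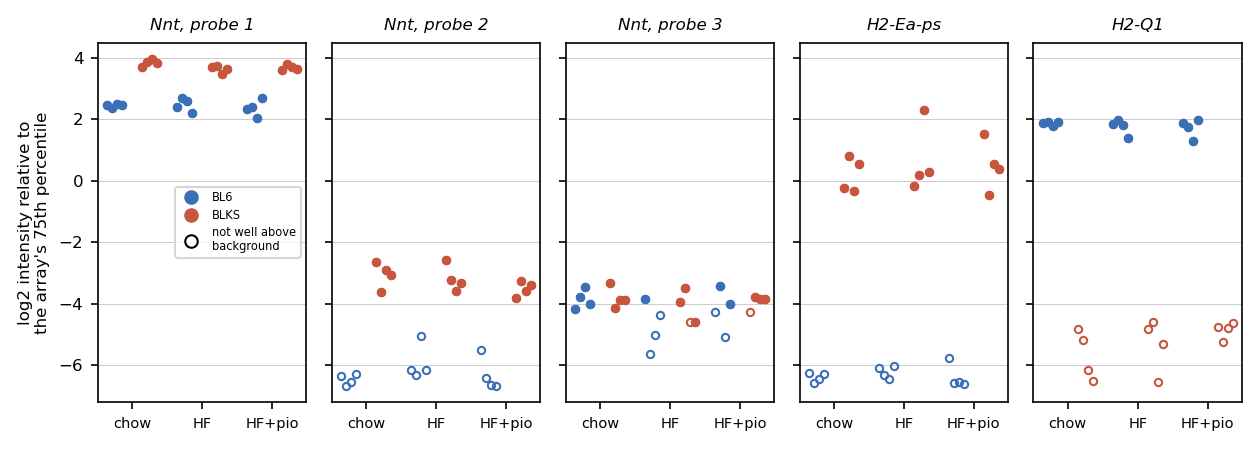
Log2 level of 3 Nnt probes and of the probes for H2-Ea-ps and H2-Q1 on all 24 arrays, by diet and strain; a point is 1 mouse and open points were not well above background. The strains separate for 4 of the 5 probes on every diet and overlap for Nnt probe 3.

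Oxidative phosphorylation genes, by contrast, were close to level. Of 48 subunits 1 rose and 4 fell, which is 10.4% called against 41.6% of all genes, and the median was -0.07. Ndufa4, a subunit of cytochrome oxidase, read 4.65, 4.50, 4.65 and 4.49 in BL6 and 3.83, 3.75, 3.54 and 3.58 in BLKS. It fell by 0.90 (SE 0.14, adjusted p = 2.48e-05), the farthest of the list, and Cox5b fell by 0.48 (SE 0.09, adjusted p = 0.000331). The single rise was Atp5d (0.30, SE 0.09, adjusted p = 0.0115). Quantile normalisation, without or with a normexp background, gave 25 or 26 lower members and a median of -0.20, so the count of oxidative phosphorylation genes called depends on the scaling.

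Genes of beta-cell identity were called in both directions, 7 higher and 12 lower of 32 (59.4% called against 41.6%), with a median of -0.17. Several of those that fell are transcription factors of the endocrine lineage. Rfx6, needed for islet development and for insulin secretion in the adult, read 3.29, 3.26, 3.33 and 3.38 in BL6 and 1.69, 1.70, 2.08 and 1.55 in BLKS. The BLKS mice were all lower, by 1.56 on average (SE 0.13, 2.95-fold, adjusted p = 9.48e-09). Foxa2 read 5.10, 5.08, 5.30 and 5.18 against 3.86, 3.71, 3.86 and 3.81 (difference -1.36, SE 0.14, adjusted p = 1.67e-07). Its paralog Foxa1 went the other way: it passed background on 1 of 4 BL6 and 4 of 4 BLKS arrays and rose (adjusted p = 2.08e-07). Its size is uncertain for that reason, at 4.08 here and 1.39 to 5.02 over the settings tried for Foxa1. Nkx2-2 fell by 0.89 (SE 0.12, adjusted p = 4.21e-06), Isl1 by 0.87 (SE 0.15, adjusted p = 9.07e-05) and Nkx6-1 by 0.40 (SE 0.11, adjusted p = 0.00781), while Neurod1 rose by 0.60 (SE 0.13, adjusted p = 0.00108).

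Receptors of the same list were called lower for 2 genes, and for Glp1r the probes disagreed. Glp1r, the incretin receptor, read 0.13, 0.30, 0.17 and 0.06 in BL6 and -0.86, -1.28, -0.75 and -1.38 in BLKS. The groups did not overlap on this probe (difference -1.23, SE 0.15, 2.35-fold, adjusted p = 1.57e-06), and the difference ran from -1.34 to -0.57 over the settings tried. A second Glp1r probe, shifted by 5 bases, showed no call (0.09, SE 0.19, adjusted p = 0.724 over all probes kept), so the value for Glp1r is uncertain. Ffar1, the fatty acid receptor GPR40, fell by 1.42 (SE 0.20, adjusted p = 8.54e-06), and Gipr had no call (-0.32, SE 0.17, adjusted p = 0.133). Pdx1, an activator of the insulin genes, and the glucose transporter Slc2a2 had no call: Pdx1 differed by 0.13 (SE 0.13, adjusted p = 0.457) and Slc2a2 by -0.15 (SE 0.13, adjusted p = 0.401). Mafa, another activator of the insulin genes, was lower by 0.30 (SE 0.11, adjusted p = 0.0371), and it lost its call when any single mouse other than BL6 mouse 3 or BLKS mouse 3 was left out.

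Of 12 alpha-cell genes 6 fell (50% against 20.9% of all genes) and 1 rose (8.33% against 20.6%), with a median of -0.56. Dpp4, the peptidase that degrades incretins, read 1.25, 1.42, 1.50 and 1.44 in BL6 and -0.13, -0.35, -0.03 and -0.10 in BLKS, and it fell by 1.56 (SE 0.10, adjusted p = 8.23e-11). The alpha-cell factors Irx1 (-1.15, SE 0.33, adjusted p = 0.00738) and Irx2 (-1.47, SE 0.25, adjusted p = 8.3e-05) were lower together. So was Ttr, transthyretin, by 0.83 (SE 0.17, adjusted p = 0.000517). Gcg itself had no call, as given above.

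Glucose sensing and excitability genes were nearly balanced, 7 higher and 8 lower of 28 (53.6% called against 41.6% of all genes, median -0.08). Channel genes were on both sides: Kcnj11, the pore of the KATP channel, rose by 0.53 (SE 0.14, adjusted p = 0.00457) while its sulfonylurea receptor Abcc8 fell by 0.35 (SE 0.13, adjusted p = 0.0324). The background potassium channels Kcnk3 and Kcnk16 moved apart, by 1.13 (SE 0.16, adjusted p = 1.17e-05) and -0.91 (SE 0.18, adjusted p = 0.000309). The inositol trisphosphate receptors Itpr1 (-0.70, SE 0.12, adjusted p = 6.63e-05) and Itpr3 (-0.81, SE 0.09, adjusted p = 1.59e-07) were both lower, and Atp2a2, the SERCA2 calcium pump, had no call (0.15, SE 0.13, adjusted p = 0.366). Of 30 granule and exocytosis genes 3 rose and 8 fell (36.7% called against 41.6% of all genes, median -0.09). Vgf, a granule peptide precursor that is also induced by activity, read 2.75, 2.33, 2.85 and 2.54 against 5.56, 5.50, 5.80 and 5.96. It rose by 3.08 (SE 0.21, adjusted p = 2.7e-10), whereas the vesicle protein Rab3a fell by 1.04 (SE 0.14, adjusted p = 6.85e-06), the priming factor Cadps by 1.03 (SE 0.13, adjusted p = 2.01e-06) and the SNARE Snap25 by 0.58 (SE 0.16, adjusted p = 0.00675).

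The major histocompatibility complex on chromosome 17 held differences of both signs close together. BL6 carries the b haplotype of H2 and BLKS the d haplotype, and the Ea gene of class II is inactive in the b haplotype. Of 33 genes of antigen presentation 11 rose and 4 fell (45.5% called, near the 41.6% of all genes, median 0.26). H2-Ea-ps (chr17:34481469-34481528, minus strand) read -6.28, -6.58, -6.47 and -6.30 in BL6 and -0.23, 0.80, -0.34 and 0.56 in BLKS. It was above background on 0 of 12 BL6 and 12 of 12 BLKS arrays over the diets, at least 25.9-fold higher on chow (adjusted p = 1.61e-10). H2-Q1, a class I gene (chr17:35461859-35461918, plus strand), was its mirror image: 1.87, 1.93, 1.80 and 1.93 in BL6 and -4.83, -5.20, -6.17 and -6.51 in BLKS. With 12 of 12 BL6 and 0 of 12 BLKS arrays above background, it was at least 91.6-fold lower (adjusted p = 1.21e-12). The class I heavy chains H2-D1 (0.76, SE 0.14, adjusted p = 0.000248) and H2-T23 (1.29, SE 0.11, adjusted p = 4.68e-09) were higher, and the class II chain H2-Aa was lower (-1.62, SE 0.55, adjusted p = 0.0222). The value for H2-K1 depended on the probe, -0.99 (SE 0.12, adjusted p = 1.59e-06) for the probe that stands for it and 0.36 for its second probe. B2m, the shared light chain, had no call (0.39, SE 0.33, adjusted p = 0.379). Class I genes share long stretches of sequence, so their probes may read each other and these values are uncertain. The first 30 bases of the 2 probes that were above background in 1 strain only are given.

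H2-Ea-ps probe: tgtttgactttgacggcgatgagattttcc
H2-Q1 probe: attcactgaacacatctttacagagttgta

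Interferon response genes were called 13 higher and 5 lower of 43 (median 0.26), which is 41.9% against 41.6% of all genes. Gbp3, a guanylate-binding GTPase, rose by 2.75 (SE 0.32, adjusted p = 6.54e-07) and Irf1 by 1.41 (SE 0.15, adjusted p = 1.93e-07). The viral RNA sensors moved in opposite directions: Ddx58 (RIG-I) rose by 1.51 (SE 0.13, adjusted p = 9.76e-09) and Ifih1 (MDA5) fell by 1.16 (SE 0.11, adjusted p = 5.96e-08). Of 31 apoptosis genes 12 rose and 7 fell (61.3% called against 41.6% of all genes, median 0.22). Casp9, the initiator caspase of the mitochondrial pathway, read 1.45, 1.62, 1.69 and 1.54 in BL6 and -0.75, -1.09, -0.80 and -0.92 in BLKS. It fell by 2.46 (SE 0.13, 5.52-fold, adjusted p = 1.06e-11). The inhibitor of apoptosis Birc3, also a target of NF-kappaB, rose by 3.31 (SE 0.32, adjusted p = 4.16e-08). Among 39 cell cycle genes 5 rose and 5 fell (25.6% called against 41.6% of all genes, median -0.15); the inhibitor Cdkn1a (p21) rose by 2.61 (SE 0.17, adjusted p = 1.56e-10) and cyclin Ccnd1 fell by 0.87 (SE 0.10, adjusted p = 6.45e-07).

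Among metabolic genes, fatty acid oxidation and PPAR targets were 8 higher and 10 lower of 38 (21.1% and 26.3%, near the 20.6% and 20.9% of all genes; median -0.05). Pdk4, which blocks pyruvate entry into the mitochondrion, read 1.44, 0.88, 1.55 and 1.03 against -1.25, -1.03, -0.71 and -0.97 (difference -2.21, SE 0.23, adjusted p = 1.48e-07). Rbp7 fell by 2.32 (SE 0.19, adjusted p = 4.57e-09) and the carnitine palmitoyltransferase Cpt2 by 1.21 (SE 0.11, adjusted p = 2.12e-08). Pparg, the receptor for pioglitazone, was higher by 0.64 on this drug-free diet (SE 0.15, 1.56-fold, adjusted p = 0.00193). With slide as a fixed term and a strain effect shared by all diets, Pparg had no call (adjusted p = 0.123). Of 27 lipid synthesis genes 8 rose and 5 fell (48.1% called against 41.6% of all genes, median -0.09). Elovl2 fell by 1.92 (SE 0.20, adjusted p = 1.05e-07) and Elovl6 rose by 1.11 (SE 0.14, adjusted p = 2.79e-06), both elongases of fatty acids. Of 25 glycolysis genes 8 rose and 1 fell (36% called against 41.6% of all genes, median 0.13). The transporters Slc2a1 (GLUT1; 1.64, SE 0.09, adjusted p = 7.09e-12) and Slc16a3, which exports lactate (1.39, SE 0.18, adjusted p = 2.42e-06), were among those that rose. Of 30 genes of insulin and IGF signalling 6 rose and 4 fell (33.3% called against 41.6% of all genes, median -0.15). Among them Irs2 was up by 1.82 (SE 0.17, adjusted p = 2.11e-08) and Foxo3 by 2.05 (SE 0.18, adjusted p = 9.35e-09).

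Outside these lists, a shared role among the genes of highest and lowest difference was not tested. Fam71a (chr1:192986463-192986522, minus strand) lies beside Atf3 and was at least 21.4-fold higher (adjusted p = 2.8e-12), at -0.34, 0.09, 0.35 and -0.40 in BLKS and below background in BL6. Apol8, an apolipoprotein L gene (at least 14.6-fold, adjusted p = 5.82e-16), Serpina3i, a serine protease inhibitor (at least 14.4-fold, adjusted p = 2.85e-08) and Ccno, a cyclin of multiciliated cells (at least 18.7-fold, adjusted p = 9.51e-10), were likewise seen above background on BLKS chow arrays and on no BL6 chow array. Mlf1 read -4.35, -4.30, -4.44 and -3.46 in BL6 and 1.37, 1.31, 1.51 and 1.36 in BLKS, a difference of 5.52 (SE 0.44, adjusted p = 3.35e-09), with 2 of 4 BL6 arrays above background.

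Among the lowest, Fggy, a carbohydrate kinase (chr4:95589618-95589677, plus strand), read 1.47, 1.41, 1.53 and 1.56 in BL6 and -2.88, -3.01, -2.85 and -3.39 in BLKS. It fell by 4.53 (SE 0.18, 23.1-fold, adjusted p = 1.47e-13), and its 4 kept probes gave differences of -4.53 to -3.17. Lyrm2, a mitochondrial LYR-motif protein, read 2.63, 2.62, 2.61 and 2.58 against -0.73, -0.88, -0.61 and -0.88 (difference -3.39, SE 0.10, adjusted p = 9.57e-16). Rnf150, a ring finger gene, fell by 4.08 (SE 0.22, adjusted p = 1.22e-11) and Caps2 by 4.51 (SE 0.49, adjusted p = 2.58e-07; 2 of 4 BLKS arrays above background). Afm, a vitamin E-binding relative of albumin, fell with only 2 of 4 BLKS arrays above background, so its size is uncertain (difference -5.58, adjusted p = 5.54e-09; -6.01 to -2.85 over the settings tried). The same holds for Sucnr1, the succinate receptor, with 1 of 4 BLKS arrays above background (difference -3.97, adjusted p = 2.02e-07; -4.45 to -1.79 over the settings). Tmc7, a transmembrane channel-like gene, was at least 22.7-fold lower (adjusted p = 6.83e-10) and Bmpr1b, a BMP receptor, at least 9.02-fold lower (adjusted p = 7.51e-07). No BLKS chow array was well above background for either.

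**Figure D4:**
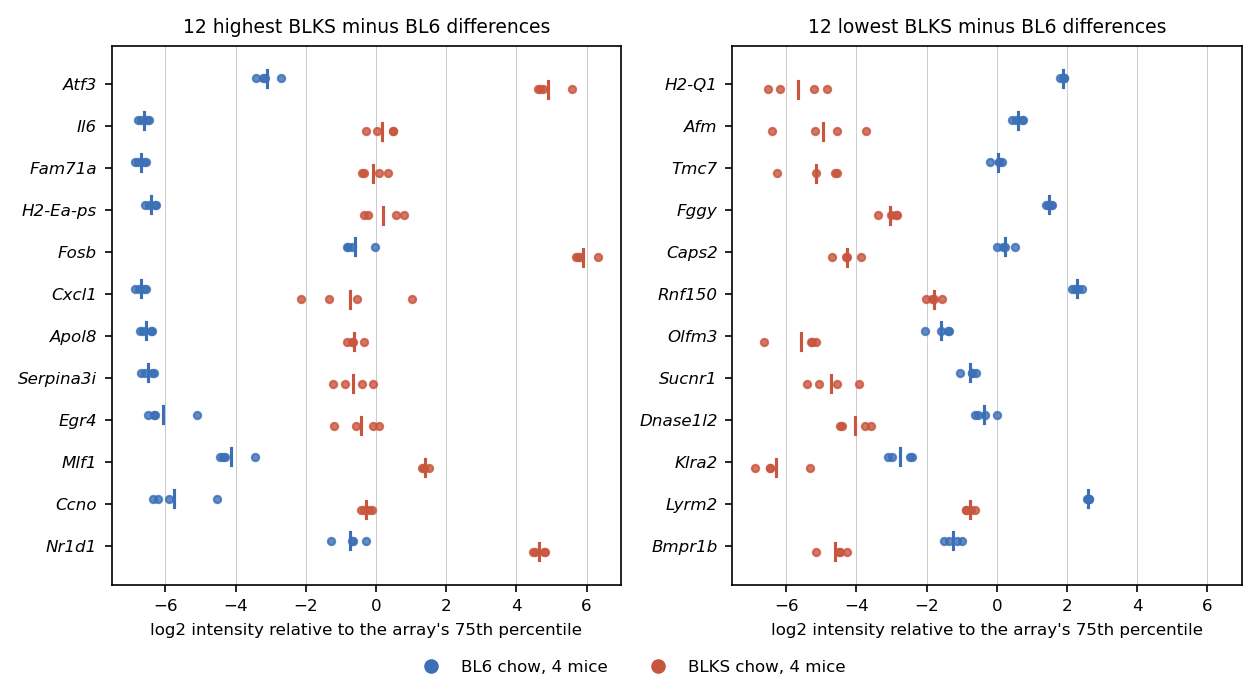
Log2 level in each of the 8 chow mice for the 12 named genes with the highest and the 12 with the lowest BLKS minus BL6 difference; a point is 1 mouse and a vertical bar is the mean of 4. For every gene shown the 4 mice of one strain lie beyond the 4 of the other, and for Il6, Fam71a, H2-Ea-ps, Cxcl1, Apol8 and Serpina3i all BL6 mice lie below -6.

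Presence on the chow arrays of a single strain was seen for 358 of the 22968 genes tested, a small part. Of these, 224 were well above background on 4 BLKS and 0 BL6 arrays and 134 on 4 BL6 and 0 BLKS arrays. Over all 3 diets, 82 genes were so on all 12 BLKS and on 0 of 12 BL6 arrays, and 33 on all 12 BL6 and 0 BLKS arrays. H2-Ea-ps was among the first group and H2-Q1, Bmpr1b and Olfm3, an olfactomedin (at least 8.20-fold lower, adjusted p = 4.35e-10), among the second.

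Gene families told apart by name were not all alike. Zinc finger genes named Zfp were mostly lower: 156 of 343 fell (45.5% against 20.9% of all genes) and 66 rose (19.2% against 20.6%), with a median of -0.26. Zfp866 read 1.52, 1.50, 1.68 and 1.62 in BL6 and -0.26, -0.39, -0.20 and -0.31 in BLKS and fell by 1.87 (SE 0.09, adjusted p = 1.05e-12), whereas Zfp819 was at least 3.66-fold higher (adjusted p = 9.99e-11). Of 44 cytochrome P450 genes 3 rose and 11 fell (31.8% called, median -0.15), and the 25% called lower is near the 20.9% of all genes. Of 34 serpins 11 rose and 4 fell (44.1% called, near the 41.6% of all genes, median 0.40). Of 262 solute carriers 52 rose and 69 fell (46.2% called), and of 69 potassium channel genes 19 rose and 14 fell (47.8%), shares close to the 41.6% of all genes.

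Calls lay on every chromosome. Their share ran from 37.3% on chromosome 15 to 47.4% on chromosome 17 among chromosomes with more than 12 tested genes; the 12 genes placed on Y had 9 called (75%) and the 12 on the mitochondrial genome 3 (25%). Of 276 windows of 10 Mb with at least 5 tested genes, 39 (14.1%) had at least 50% of their genes called. Chromosome 12 held the highest share (4 of 5 genes beyond 120 Mb) and, among well-filled windows, the interval from 20 to 30 Mb, with 41 of 65 genes called (63.1%). Mboat2, a lysophospholipid acyltransferase in that interval (chr12:25644491-25644550, plus strand), read 3.34, 3.38, 3.46 and 3.55 in BL6 and 1.67, 1.71, 1.85 and 1.68 in BLKS and fell by 1.70 (SE 0.12, adjusted p = 7.55e-10). On chromosome 17 the window from 20 to 30 Mb had 156 of 284 genes called (54.9%), and the window from 30 to 40 Mb, which holds the H2 probes named above, 140 of 281 (49.8%).

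Markers of cells other than endocrine cells differed for some types. Of 7 ductal markers 4 rose (57.1% against 20.6% of all genes) and none fell (median 2.26, or 1.57 with the member at its bound). Their mean level was -2.87 to -1.87 in BL6 and -0.67 to -0.42 in BLKS. Krt19, the duct keratin, read -3.43, -2.08, -5.79 and -2.43 against 0.58, 0.38, 0.82 and 0.28 (difference 3.94, SE 0.67, adjusted p = 7.52e-05). Over the settings tried the ductal median ran from 0.22 to 2.57 with 2 to 5 members called higher. With slide as a fixed term and a strain effect shared by all diets, Krt19 (adjusted p = 0.173) and Sox9 (adjusted p = 0.324) had no call. Spp1, osteopontin, rose by 2.85 (SE 0.41, adjusted p = 9.84e-06), while the duct channel Cftr (-0.26, adjusted p = 0.661) and Krt7 (-0.05, adjusted p = 0.778) had no call. Of 10 macrophage markers 1 rose and 4 fell (10% and 40% against 20.6% and 20.9% of all genes, median -0.29). Cd14, the lipopolysaccharide co-receptor, rose by 3.68 (SE 0.17, adjusted p = 1.46e-12), whereas Itgam fell by 0.66 (SE 0.17, adjusted p = 0.00373). Of 5 Schwann cell markers 3 fell (60% against 20.9% of all genes), Sox10 by 1.89 (SE 0.30, adjusted p = 3.81e-05). Of 12 lymphocyte markers none was called higher, though 11 differences were positive (median 0.83), and Cd3e fell. For the mean of these markers, BL6 mouse 3 (-0.06) and BLKS mice 2 (0.12) and 4 (-1.34) stood above the others (-4.14 to -3.18). Of 14 acinar markers 1 fell, with means of 0.05 to 6.82 in BL6 and -2.26 to 6.00 in BLKS, so exocrine RNA varied more between mice than between strains. The part of these markers in the gene list results was not tested, beyond the fits given with the limits.

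The chow differences recurred on the other diets, in other mice. On those diets too, no slide held BL6 and BLKS arrays of the same diet. BL6 arrays lay on slide 1 (high-fat diet) or on slides 2 and 3 (with pioglitazone), and all BLKS arrays on slide 4. Strain and slide cannot be told apart there either. Of the 9544 genes called on chow, 7997 (83.8%) were called with the same sign on high-fat diet, which is 69.8% of the genes called there with any sign (11465, 49.9% of those tested), and 11 were called with the opposite sign. On high-fat diet with pioglitazone 7691 (80.6%) recurred, which is 73.2% of 10513 calls there (45.8%), and 13 were opposite. On all 3 diets 7126 genes were called with the same sign, 3673 higher and 3453 lower. A test of whether the strain difference itself changed between chow and high-fat diet called 0 genes (0%; limma, smallest adjusted p = 0.0818, 1947 genes at an unadjusted p under 0.05). Between chow and the diet with pioglitazone it also called 0 (0%; limma, smallest adjusted p = 0.0851, 2196 genes at an unadjusted p under 0.05). Neither count shows that the strain difference was equal on the 3 diets.

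Medians of some lists were close on the 3 diets and those of others were not. Immediate early genes had medians of 3.40 on chow, 3.26 on high-fat diet and 3.36 with pioglitazone, with 27 of 28 called higher each time. Inflammation genes had medians of 2.05, 2.00 and 2.05, with 24, 25 and 23 called higher. Oxidative phosphorylation genes had 4, 20 and 12 called lower. Lymphocyte markers had medians of 0.83, 0.78 and -1.83, MHC genes of 0.26, 0.19 and -0.26, and Schwann cell markers of -1.06, -0.78 and 0.16. Atf3 differed by 8.02, 7.63 and 8.15, and Nr1d1 by 5.38, 5.00 and 5.32. Hspa1a was less even, at 3.73, 3.27 and 6.65, and Dnajb1 differed by 3.08, 1.36 and 2.94. For Rfx6 the values were -1.56, -1.60 and -1.60. Within slide 2, where 3 of the BLKS chow mice are set against BL6 mice on high-fat diet with pioglitazone, the immediate early median was 3.40 and the inflammation median 1.86.

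**Figure D5:**
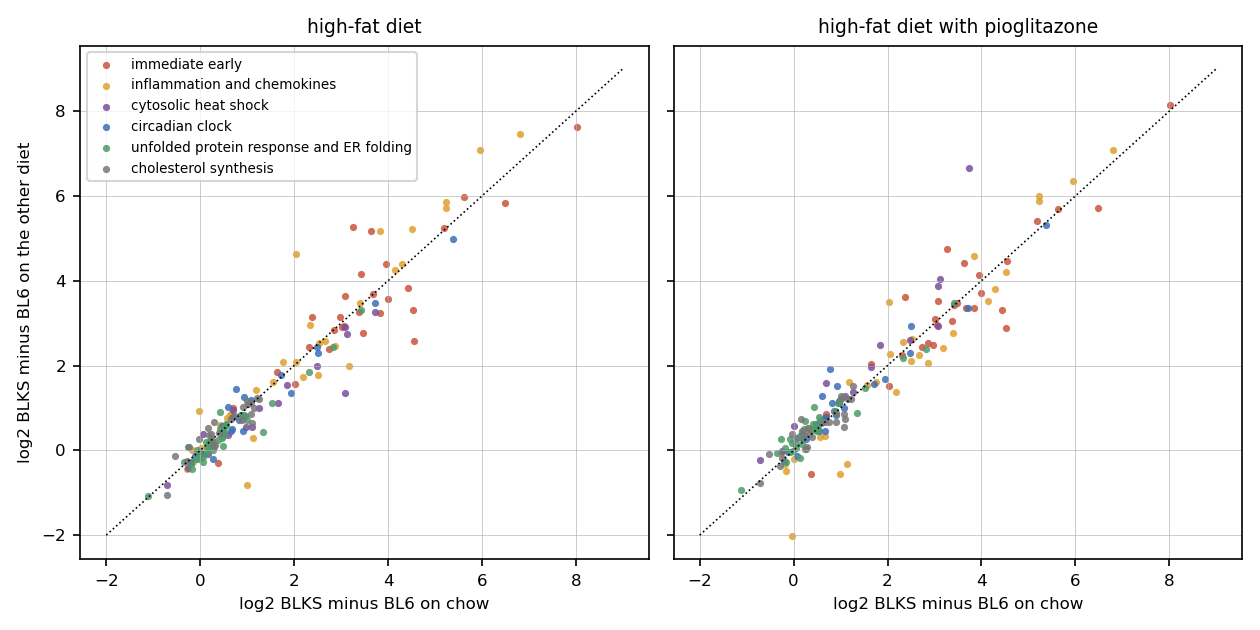
BLKS minus BL6 log2 difference on high-fat diet (left) and on high-fat diet with pioglitazone (right) against that on chow, for members of 6 gene lists; a point is 1 gene, each comparison has 4 mice per strain and the dotted line marks equal differences. Atf3 lies farthest out, at 8.02 on chow and 7.63 and 8.15 on the other diets, and Hspa1a stands above the line with pioglitazone, at 6.65.

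Probes of the same gene mostly told the same story. The called genes had 4402 other kept probes, of which 82.9% had the sign of the probe that stands for the gene, 56.2% had that sign and passed the threshold, and 5.68% passed it with the opposite sign. For genes called at 4-fold or more, 94.0% of 283 other probes had the same sign. Among genes named above, a second probe had no call for Glp1r, Cox5b (-0.05), Irx2 (-0.82), Foxo3 (1.14) and Itgam (-0.23), and H2-K1 had calls of both signs.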

How the data were processed

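The deposited files are scanner output of single-colour Agilent arrays. Per the file headers, the authors used Agilent Feature Extraction 10.7.3.1, which subtracted background and detrended each array to give processed intensity values, with probe positions on mm9. The authors' deposited value table holds the ratio of each processed intensity to its array's median, found by setting the table against the scanner values, and it was used only as an alternative. Normalisation beyond this is not given in the sources used here.

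Control spots and 55 probes marked as outliers were left out. Processed intensity was turned into log2 and each array's 75th percentile was subtracted. Of 55681 probes, 32750 were kept as well above background on at least 4 arrays, and the probe of highest mean stood for each gene, giving 22968 genes, of which 14900 (64.9%) matched a current symbol in RefSeq. A linear model per gene with moderated variances was fitted to the 6 groups of 4 arrays in R 4.3.3 with limma 3.58.1, and strain differences were contrasts with Benjamini-Hochberg adjustment. On simulated data this recovered 67% of genes changed by a log2 of 1 and 93% of those changed by 2. There were 9 false calls among the unchanged of 22968 genes. The simulation had independent noise, few changed genes and no slide effect, so it does not cover the overlap of strain and slide. The number of arrays limits the precision.

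Named genes are the 12 highest and 12 lowest called differences without overlap, up to 4 called members of smallest p in each list or family with at least 3 calls and in the 3 windows with the highest share called, and Nnt, the hormones, Pdx1, Mafa, Slc2a2, Atp2a2 and Pparg. Some genes that this rule names are not reported here. Other list members named here were chosen after their values were seen. The comparison and all lists were chosen with earlier results of these data known. Whether the BLKS sequence differs from the printed one under any probe was not tested. Alternatives covered background correction, quantile scaling, the filter, the probe rule, the value table, slide, the mouse number as a block, acinar and lymphocyte scores as covariates, and leaving out each mouse.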

Additional observations from a re-analysis of the deposited data

Results flagged for a closer look

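Of 360 groups of 4 chow mice examined (the named genes and the per-array measures, in each strain), 22 had 1 mouse whose gap to the nearest other mouse exceeded Dixon's 95% critical share of the group's range; chance gives about 1 group in 20, and 22 of 360 is 6.11%. BLKS mouse 3, the only chow mouse on slide 3, accounted for 6. Its log2 level was the highest of its strain for Atf3 at 5.58, the other 3 from 4.61 to 4.76. The same held for Fos at 5.55, the other 3 from 5.01 to 5.10. Fosb stood at 6.33, the other 3 from 5.70 to 5.80, and Socs3 at 5.00, the other 3 from 4.45 to 4.50. It was lowest for Cat at 1.17, the other 3 from 1.31 to 1.34, and for Xbp1 at 7.17, the other 3 from 7.29 to 7.31. BL6 mouse 1 was the highest BL6 mouse for Fosb at -0.04, the other 3 from -0.82 to -0.70. Hspb8 was at 1.30, the other 3 from 0.59 to 0.71, and Ppp1r15a at 3.58, the other 3 from 3.26 to 3.28. It was the lowest for Ppy at 9.06, the other 3 from 9.55 to 9.63. 

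Lymphoid genes stood out in single mice. In BL6 mouse 3 Cxcl13 was at 1.21, the other 3 from -4.19 to -4.00, and the mean lymphocyte level was -0.06, the other 3 from -4.14 to -3.71. In BLKS mouse 2 Cxcl13 was at 3.71, the other 3 from -5.51 to -4.59. BL6 mouse 2 was low for Ccnd1 at 4.23, the other 3 from 4.41 to 4.43, and for Tm7sf2 at 2.32, the other 3 from 2.47 to 2.49. It was high for Itgam at 5.80, the other 3 from 5.42 to 5.48, and for Egr4 at -5.09, the other 3 from -6.50 to -6.30, all 4 of them below background. BL6 mouse 3 was low for Per2 at -1.36, the other 3 from -1.14 to -1.11. BL6 mouse 4 was high for Mlf1 at -3.46, the other 3 from -4.44 to -4.30. BLKS mouse 2 was high for Foxa1 at -0.94, the other 3 from -1.96 to -1.81. BLKS mouse 4 was low for Olfm3 at -6.64, the other 3 from -5.29 to -5.15, where no BLKS chow array passed background. The 75th percentile of intensity was 268.6 in BLKS mouse 1 and 336.4 to 345.4 in the other 3.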

How the results depend on the processing

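The strain difference on chow kept its count of 9544 called genes within 1.5 times under most settings: 8507 to 8948 when each mouse was left out in turn, 10061 with normexp background, 10145 with quantile scaling, 8608 with the authors' value table, and 9759 with the mouse number as a replicate block. The mouse numbers did not pair the mice. It moved to 4313 with slide as a fixed term and to 3012 when a 2-fold difference was also required. Within slide 2, called the shared slide below, it was 5213 (chosen after seeing the data). With slide fixed, calls among gene lists on chow went from 349 to 191. The difference between the strain difference on chow and on high-fat diet had 2 calls with quantile scaling, 4 with the replicate block and 0 to 1 with a mouse left out (1 without BLKS mouse 4). For the diet with pioglitazone it had 0 to 1 (1 without BL6 mouse 2). Windows with at least 50% of genes called made up 14.1% at 10 Mb and 21.7% at 5 Mb. Genes above background in 1 strain only numbered 358, and 562 when 3 of 4 arrays sufficed. Of 201 genes that the naming rule gave, 41 kept their sign but lost their call with slide fixed, and 30 did so within the shared slide. The 41 include Pparg, Sox10, Ttr, Rab3a, Kcnk3 and Cox5b. Among named genes, Emcn read 0.017 with slide fixed and 0.21 within the shared slide, S100b 0.85 and 0.10, and within that slide Mgst1 read -0.11 and Mafa 0.083, each a turned sign. The causes were not tested. Without the 3 chow arrays of highest lymphocyte level (BL6 mouse 3, BLKS mice 2 and 4; chosen after seeing the data) 6513 genes were called. List medians for immediate early genes ranged from 2.76 to 3.66 and for inflammation genes from 1.02 to 2.23 over all settings, and clock, heat shock, unfolded protein response, cholesterol, beta-cell and alpha-cell medians kept their sign. Medians of the hormone, glucose sensing, exocytosis, oxidative phosphorylation, NADPH, lipid synthesis, fatty acid oxidation, apoptosis, MHC, acinar, lymphocyte, Schwann, solute carrier and potassium channel genes changed sign under some settings.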
